A study of Mus musculus with 8 samples.

Results

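The genes described here are 34 genes of the ATF4 amino acid response, out of the 27679 genes counted in bulk RNA from mouse megakaryocyte cultures. Megakaryocytes are the large platelet-forming cells of the bone marrow, and transcripts of other cells were present too. The 34 genes are listed by name, as known genes of that response, a list drawn up with earlier results of these data known. They are 11 stress response factors and regulators, 5 enzymes of amino acid synthesis and one-carbon metabolism, 6 amino acid transporters and 12 cytosolic tRNA synthetases. All 34 were matched to a row of the count table and all 34 had enough counts to be tested. The libraries came from wild-type C57BL/6 marrow from which lineage-positive cells had been removed with magnetic beads. The remaining progenitors were cultured over 3 days, some in liquid and some in a methylcellulose hydrogel (2%, Young modulus 30 to 60 Pa), a very soft gel that surrounds the cells, and larger cells were then enriched on a 2 to 4% albumin gradient. Both groups had 4 libraries of polyadenylated RNA, which the submitters call independent biological replicates, and neither carried a transgene or a drug treatment in the labels. The series asks how being held in a soft gel, compared with free suspension, alters megakaryocytes before they release platelets.

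ATF4 is a transcription factor whose own messenger RNA is always present but is translated efficiently only when the initiation factor eIF2 has been phosphorylated. A family of eIF2 kinases does this, each answering a different signal: GCN2 (Eif2ak4) senses uncharged tRNA when amino acids run short, PERK (Eif2ak3) senses unfolded protein in the endoplasmic reticulum, PKR (Eif2ak2) senses double-stranded RNA and HRI (Eif2ak1) senses lack of heme. ATF4 then pairs with other leucine zipper proteins on DNA and switches on genes that bring amino acids into the cell, make them, attach them to tRNA and, if the stress lasts, slow growth. Because the main control is on translation and protein stability, the level of Atf4 mRNA is not a measure of ATF4 protein, which was not measured here.

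In hydrogel, transcripts of 16 of the 34 genes rose, 1 fell and 17 did not pass the test. By class, 7 of 11 factors and regulators rose, 7 of 12 tRNA synthetases, 2 of 6 transporters and 0 of 5 enzymes; whether the classes differ was not tested. Most were small: the median log2 change over the 34 genes was 0.23, a 1.17-fold rise, and 3 called genes reached 2-fold, namely Nupr1, Trib3 and Sesn2. The amino acid transporter gene Slc38a2 was the member that fell. A call here means an adjusted p under 0.05 in edgeR's quasi-likelihood test, with Benjamini-Hochberg adjustment over the 13845 genes tested. Against the same rule, 15.1% of all genes tested rose, 14.1% fell and 29.3% were called in either direction, and the median log2 change over all genes was −0.01. By class the median log2 change was 0.34 for factors and regulators, 0.16 for enzymes, 0.17 for transporters and 0.21 for synthetases. A positive log2 change, whatever its test, was seen for 30 of the 34. For 15 of the 34, all 4 hydrogel libraries lay above all 4 liquid libraries, a pattern that 14.6% of all genes tested showed. These 15 were 7 factors and regulators, 1 transporter and 7 synthetases, and for the other 19 the libraries of the groups overlapped.

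**Figure D1:**
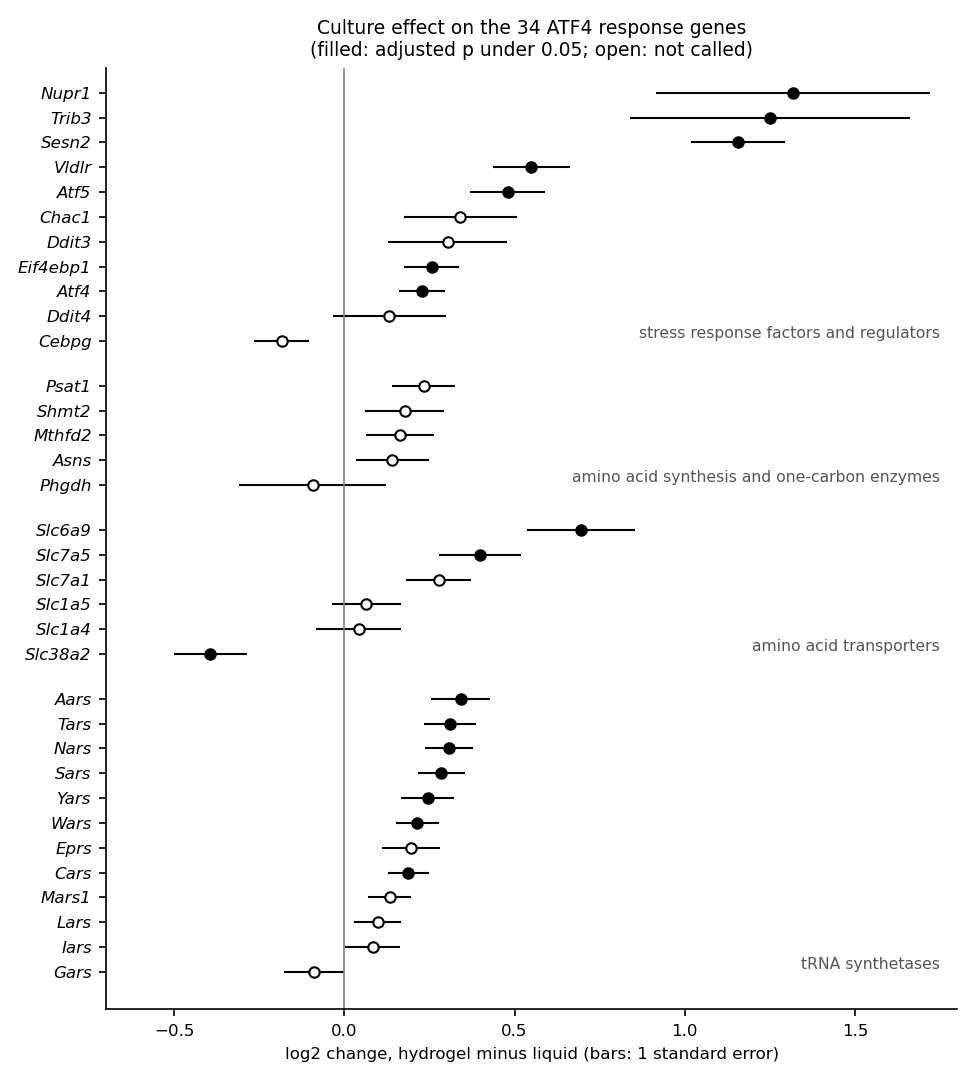
Log2 change, hydrogel minus liquid, of each of the 34 genes, grouped by class; bars are 1 standard error from edgeR's quasi-likelihood fit over 4 libraries a group, and filled points passed the test. Most points lie a little to the right of 0, Sesn2, Trib3 and Nupr1 lie beyond 1, and Slc38a2 is the called gene on the left.

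Of the 16 genes that rose, 8 kept their call whichever single library was left out, namely Atf5, Sesn2, Vldlr, Slc6a9, Aars, Nars, Sars and Tars. The other 8, namely Atf4, Trib3, Nupr1, Eif4ebp1, Slc7a5, Wars, Yars and Cars, lost it in between 4 and 7 of the 8 omissions. Between 8 and 14 of the 34 genes rose when 1 library was left out: 8 without hydrogel 2 or without liquid 4, 9 without hydrogel 1 or without liquid 3, 11 without hydrogel 3 or hydrogel 4, and 14 without liquid 1 or liquid 2. Over all genes tested, the share that rose was 10.4% without hydrogel 2, 11.3% without liquid 4, 15.5% without hydrogel 1, 12.7% without liquid 3, 10.8% and 11.6% without hydrogel 3 and hydrogel 4, and 12.1% and 18% without liquid 1 and liquid 2. Scaling by upper quartiles in place of TMM left 9 rises, beside 12.7% of all genes. The calls it ended were those of Atf4, Trib3, Eif4ebp1, Slc7a5, Wars, Yars and Cars, at edgeR adjusted p of 0.0888, 0.0507, 0.102, 0.0679, 0.103, 0.114 and 0.143. With no filter on low counts 11 rose, beside 7.14% of all genes, and Atf4, Eif4ebp1, Wars, Yars and Cars did not pass, at adjusted p of 0.0856, 0.0729, 0.101, 0.0834 and 0.165.

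Library totals ran from 27012172 to 49281611 counts. TMM scaling split the called genes of the whole table into 2096 higher and 1956 lower, upper-quartile scaling into 1755 and 2492, and library totals alone into 2280 and 1513. Transcripts of other cells moved with the culture: 20 of 24 monocyte and macrophage markers rose and 0 fell, their summed level running from 6356 to 14017 CPM (counts per 1000000 counts of the library, after TMM scaling) in hydrogel and from 1868 to 3670 CPM in liquid. Of 16 megakaryocyte markers 11 fell and 0 rose, with sums of 26823 to 38959 CPM in hydrogel and 32928 to 53568 CPM in liquid, so megakaryocyte transcripts were abundant in all 8 libraries. Neutrophil markers gave 2 rises and 1 fall among 12, mast cell and basophil markers 5 falls among 6 tested, dendritic markers 1 rise and 4 falls among 6 tested, erythroid markers 2 falls among 4 tested, and stromal markers 1 rise and 1 fall among 4 tested. B cell and T cell markers summed to at most 0.704 and 0.395 CPM, and no marker on any list was at 0 in all libraries. Hydrogel 1 and liquid 2 stood closest to the opposite group, with the lowest macrophage sum of the hydrogel libraries and the highest of the liquid ones. In bulk RNA, fewer cells of a type and less RNA per cell cannot be told apart, and the part of the other cells in the changes of the 34 genes was not tested beyond the values given with the library pattern.

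ATF4 binds DNA with C/EBP family proteins at a composite site, the C/EBP-ATF response element, and the promoters of the 34 genes were read for it because the members with and without its letters could then be set beside their changes. The letters searched were TGATGNAA, on both strands, in RefSeq promoter windows of 300 bases (build GRCm38.p6, 250 before to 50 after an annotated start). Windows were found for 27 of the 34 genes, and 11 genes had a match. Counted by window, 11 of 33 windows matched, or 33.3%, against 3.97% of all 32851 windows in the table. The members were listed as known genes of the ATF4 response, so this contrast describes the list and is not a result of these data. The stricter TGATGCAA was present for 8 members and in 0.895% of all windows; every such match is also a match to the looser letters. The stretches below belong to 5 members with a match that rose, and to Chac1, Asns and Iars, which had a match and did not pass the test. Each is written 5′ to 3′ on the strand of the gene, with the matching letters, or their reverse complement, in capitals.
Trib3 (chr2:152344029-152344056, minus strand): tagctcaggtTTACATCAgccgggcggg
Nupr1 (chr7:126625563-126625590, minus strand): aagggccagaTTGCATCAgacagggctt
Vldlr (chr19:27216810-27216837, plus strand): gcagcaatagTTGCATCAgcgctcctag
Tars (chr15:11399656-11399683, minus strand): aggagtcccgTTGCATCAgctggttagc
Yars (chr4:129189896-129189923, plus strand): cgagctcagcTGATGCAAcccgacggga
Chac1 (chr2:119351025-119351080, plus strand): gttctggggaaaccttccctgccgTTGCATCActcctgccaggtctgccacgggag
Asns (chr6:7693215-7693242, minus strand): cccagccacaTGATGAAActtcccgcac
Iars (chr13:49682127-49682154, plus strand): actgtcagtaTTGCATCAcctccagacg

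The match of Vldlr began 200 bases before the start, that of Chac1 193 and that of Nupr1 110, while those of Asns and Tars began 23 and 15 bases before it. In Trib3, Iars and Yars the match lay just after the start, from base 14, 7 and 3. Slc1a4 and Gars had 1 match each, and Aars, which rose, had 2. Of the 11 members with a match, 6 rose and 5 did not pass the test. Of the 16 members with a window and no match, 5 rose (Atf4, Atf5, Sesn2, Slc6a9 and Sars), 1 fell (Slc38a2) and 10 did not pass. Rises were therefore seen both with and without these letters in the window. The members that had no window are outside these counts: Eif4ebp1, Slc7a5, Nars, Wars and Cars rose, and Slc1a5 and Lars did not pass. A match describes the letters only, and a window without one says nothing of sites elsewhere in the gene.

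The factors and regulators are the proteins that carry the response and limit it. Atf4 mRNA itself (ENSMUSG00000042406) stood at 277, 277, 268 and 268 CPM in hydrogel libraries 1 to 4 and at 217, 252, 224 and 238 CPM in liquid libraries 1 to 4. The hydrogel libraries were nearly level and all lay above the liquid ones. The means were 273 ± 5.04 and 233 ± 15.4 CPM (SD, n = 4 each), a log2 change of 0.23 ± 0.07 (SE) or 1.17-fold, with an edgeR adjusted p of 0.0282. The call held when liquid 2 was left out, with an edgeR adjusted p of 0.00932, and lost for each of the other 7 omissions, where it ran from 0.0515 to 0.0838. In an edgeR fit that also carried a score of the 24 macrophage markers as a covariate, the log2 change of Atf4 was 0.08 (edgeR adjusted p = 0.806).

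Atf5 (ENSMUSG00000038539), a related leucine zipper factor that is translated under the same control, gave 78.1, 68.9, 76.5 and 64.2 CPM in hydrogel and 58.5, 45.4, 57.7 and 44.7 CPM in liquid. Every hydrogel library was above every liquid library, at means of 71.9 ± 6.51 and 51.6 ± 7.55 CPM. It rose 1.39-fold, with a log2 change of 0.48 ± 0.11 and an edgeR adjusted p of 0.00938. Its exons overlap 82 bases of other genes on the opposite strand, and the strand setting of the counting is not given in the sources used here.

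Sesn2 (ENSMUSG00000028893) encodes Sestrin2, a leucine-binding protein that restrains the growth kinase complex mTORC1. It had the smallest adjusted p of the 34 genes, at 52.6, 44.1, 43.8 and 35.6 CPM in hydrogel and 17.1, 22.4, 22.2 and 17.3 CPM in liquid. The lowest hydrogel library was still above the highest liquid library. The rise was 2.23-fold, from 19.7 ± 2.97 to 44.0 ± 6.93 CPM, with a log2 change of 1.16 ± 0.14 and an edgeR adjusted p of 0.000503. It stayed between 1.06 and 1.25 on the log2 scale over the 8 omissions.

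Trib3 (ENSMUSG00000032715) encodes a pseudokinase that is switched on by ATF4 and feeds back on it. Its levels were 22.2, 8.15, 8.76 and 5.66 CPM in hydrogel and 7.32, 4.08, 4.09 and 3.44 CPM in liquid. Hydrogel 1 was far above the other hydrogel libraries, liquid 1 far above the other liquid ones, and the groups overlapped. The 2.38-fold difference of means, 11.2 ± 7.47 against 4.73 ± 1.75 CPM, gave a log2 change of 1.25 ± 0.41 and an edgeR adjusted p of 0.0446. Without hydrogel 1 the log2 change was 0.67 (edgeR adjusted p = 0.0866), and the call was also lost without hydrogel 2, hydrogel 3, liquid 2, liquid 3 or liquid 4, where the adjusted p ran from 0.0579 to 0.120.

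Nupr1 (ENSMUSG00000030717), a small stress-induced chromatin protein, was scarce, with 197 counts in all in hydrogel and 86 in liquid. Hydrogel libraries held 1.18, 1.75, 1.5 and 1.84 CPM and liquid libraries 0.899, 0.822, 0.198 and 0.634 CPM, with no overlap. The log2 change was 1.32 ± 0.40, or 2.49-fold, at an edgeR adjusted p of 0.0332. Leaving out hydrogel 2, hydrogel 3, hydrogel 4 or liquid 4 took the edgeR adjusted p to between 0.0670 and 0.0862, and under the macrophage covariate the log2 change was 0.32 (adjusted p = 0.876).

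Vldlr (ENSMUSG00000024924) encodes a lipoprotein receptor that PERK and ATF4 are known to induce in stressed cells. Hydrogel libraries held 286, 222, 215 and 205 CPM and liquid libraries 165, 143, 177 and 150 CPM. Hydrogel 1 was the highest of all, and no library of one group reached into the other. It rose 1.46-fold, from 159 ± 15 to 232 ± 37.0 CPM, with a log2 change of 0.55 ± 0.11 and an edgeR adjusted p of 0.00582. Eif4ebp1 (ENSMUSG00000031490), which encodes the translation repressor 4E-BP1, was at 91.6, 78.5, 76.6 and 82.0 CPM in hydrogel and 74.9, 61.9, 68.5 and 70.0 CPM in liquid. The gap between its groups was narrow, 76.6 against 74.9 CPM. Its log2 change was 0.26 ± 0.08, or 1.19-fold (edgeR adjusted p = 0.0366), and the call was held only without hydrogel 3 or without liquid 1. In the other omissions its edgeR adjusted p ran from 0.0610 to 0.0878.

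The remaining 4 factors did not pass. Ddit3 (ENSMUSG00000025408), which encodes CHOP, the factor tied to cell death when stress lasts, stood at 16.0, 13.5, 15.1 and 10.5 CPM in hydrogel and 12.2, 12.8, 11.7 and 7.96 CPM in liquid. Its groups overlapped, and the log2 change was 0.30 ± 0.17 (edgeR adjusted p = 0.222). It shares 68 bases of exon with Mars1 on the opposite strand. Chac1 (ENSMUSG00000027313), a glutathione-degrading enzyme that is among the most inducible ATF4 targets, was at 4.22, 4.47, 4.38 and 4.79 CPM in hydrogel and 2.60, 3.91, 3.65 and 3.91 CPM in liquid. All its hydrogel libraries lay above all its liquid ones, yet the log2 change of 0.34 ± 0.17 did not pass (edgeR adjusted p = 0.149), and it was −0.03 under the macrophage covariate. Ddit4, which encodes the mTORC1 inhibitor REDD1, had a log2 change of 0.13 ± 0.17 (edgeR adjusted p = 0.585), which turned to −0.01 without hydrogel 1. Cebpg, a partner of ATF4 on its DNA sites, had a log2 change of −0.18 ± 0.08 (edgeR adjusted p = 0.113). Without hydrogel 1 it was −0.25, with an adjusted p of 0.0310.

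**Figure D2:**
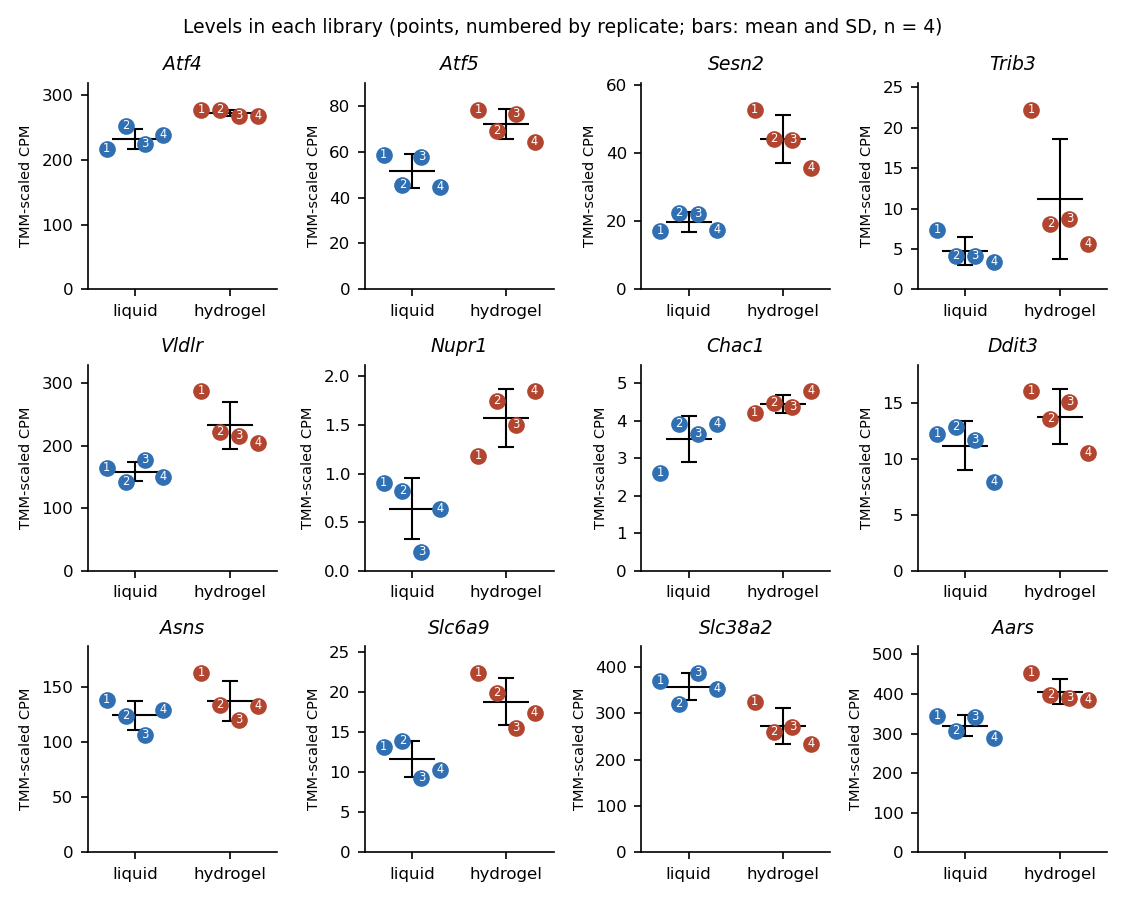
Levels of 12 genes in each library, in TMM-scaled CPM on axes that start at 0; points are single libraries numbered by replicate, and bars are the mean and SD of 4 libraries. Sesn2 separates by culture with a wide gap, Trib3 has hydrogel 1 far above the rest, and Slc38a2 runs the other way.

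The enzymes make asparagine and serine and move one-carbon units into mitochondrial folate metabolism, and they include the classical ATF4 target Asns. None of the 5 passed. Asparagine synthetase, Asns (ENSMUSG00000029752), was at 162, 133, 120 and 132 CPM in hydrogel and 138, 124, 106 and 129 CPM in liquid. The libraries intermingled, at means of 137 ± 18.0 and 124 ± 13.2 CPM, and the log2 change was 0.14 ± 0.11 (edgeR adjusted p = 0.353).

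Psat1 (ENSMUSG00000024640), the aminotransferase of serine synthesis, was at 236, 231, 212 and 225 CPM in hydrogel and 224, 194, 163 and 189 CPM in liquid. Its log2 change was 0.23 ± 0.09 (edgeR adjusted p = 0.0885), and 0.31 with an adjusted p of 0.0271 without liquid 1. Phgdh (ENSMUSG00000053398), which opens the same pathway, gave 8.38, 10.7, 8.36 and 9.61 CPM in hydrogel and 13.3, 12.1, 7.28 and 7.06 CPM in liquid. Liquid libraries lay on both sides of the hydrogel ones, and its log2 change was −0.09 ± 0.22 (edgeR adjusted p = 0.781), turning to 0.08 without liquid 1 and 0.02 without liquid 2. The mitochondrial enzymes Shmt2 and Mthfd2 had log2 changes of 0.18 ± 0.12 and 0.16 ± 0.10 (edgeR adjusted p = 0.281 and 0.248). Levels in liquid per kilobase of exon were 46.6 CPM for Shmt2, 45.4 for Asns, 45.3 for Psat1 and 31.7 for Mthfd2, against 3.99 for Phgdh, the scarcest of the 5 on that scale.

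The transporters split. Slc7a5 (ENSMUSG00000040010), the light chain LAT1 that carries leucine and other large neutral amino acids, was at 334, 308, 235 and 267 CPM in hydrogel and 240, 231, 184 and 213 CPM in liquid. Hydrogel 3 fell below liquid 1, so the groups overlapped by those 2 libraries. The log2 change was 0.40 ± 0.12, or 1.32-fold, from 217 ± 24.3 to 286 ± 43.6 CPM (edgeR adjusted p = 0.0321). Without hydrogel 1, hydrogel 2, liquid 3 or liquid 4 the edgeR adjusted p was between 0.0663 and 0.0919. Slc6a9 (ENSMUSG00000028542), the glycine transporter GLYT1, which supplies glycine for heme synthesis in erythroid cells, was at 22.4, 19.8, 15.6 and 17.4 CPM in hydrogel and 13.2, 13.9, 9.24 and 10.3 CPM in liquid. Its groups did not overlap, and it rose 1.62-fold, with a log2 change of 0.69 ± 0.16 (edgeR adjusted p = 0.00947). This gene is uncertain, since 1429 bases of its exons lie opposite Ccdc24. Under the macrophage covariate neither Slc7a5 nor Slc6a9 passed, at log2 changes of 0.53 and 0.70 (edgeR adjusted p = 0.218 and 0.231).

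Slc38a2 (ENSMUSG00000022462), which encodes SNAT2, a sodium-coupled carrier of small neutral amino acids and a known target of amino acid shortage, went the other way. It was at 325, 260, 271 and 233 CPM in hydrogel and 370, 320, 387 and 353 CPM in liquid. Hydrogel 1 lay above liquid 2, and every other hydrogel library was below every liquid one. It fell 1.31-fold, from 358 ± 28.6 to 272 ± 38.8 CPM, with a log2 change of −0.39 ± 0.11 and an edgeR adjusted p of 0.0203. Without hydrogel 2, hydrogel 3, hydrogel 4 or liquid 1 the edgeR adjusted p was 0.0519 to 0.0661, and under the macrophage covariate the log2 change was 0.10 (adjusted p = 0.776). The cationic amino acid transporter Slc7a1 had a log2 change of 0.28 ± 0.10 (edgeR adjusted p = 0.0547), and passed without hydrogel 3 or liquid 2 at 0.0427 and 0.0245, with library totals alone at 0.0497 and with both hydrogel 1 and liquid 2 left out at 0.0226. DESeq2 gave it an adjusted p of 0.0375. The neutral amino acid carriers Slc1a4 and Slc1a5 had log2 changes of 0.04 ± 0.12 and 0.06 ± 0.10 (edgeR adjusted p = 0.833 and 0.673), and upper-quartile scaling turned Slc1a4 to −0.01. In liquid, Slc7a5 had 58.5 CPM per kilobase and Slc38a2 40.5, above Slc1a5 at 19.1, Slc1a4 at 13.8, Slc7a1 at 12.6 and Slc6a9 at 2.26.

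Cytosolic tRNA synthetases join each amino acid to its tRNA, and ATF4 is known to raise the transcripts of many of them. Here 7 of 12 rose and none fell, and the rises were narrow in size, from 1.14-fold for Cars to 1.27-fold for Aars. Alanyl-tRNA synthetase, Aars (ENSMUSG00000031960), was at 453, 397, 389 and 384 CPM in hydrogel and 343, 306, 343 and 290 CPM in liquid. The groups were apart by 384 against 343 CPM, and its log2 change was 0.34 ± 0.09 (edgeR adjusted p = 0.0152). Part of its exons, 1326 bases, is shared with Exosc6 on the same strand. Exosc6 was not among the genes counted, so whether its reads were counted as Aars cannot be told, and Aars is uncertain too.

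Asparaginyl-tRNA synthetase, Nars, gave 340, 322, 303 and 318 CPM in hydrogel and 281, 256, 246 and 255 CPM in liquid, and rose by 0.31 ± 0.07 on the log2 scale (edgeR adjusted p = 0.00920). Threonyl-tRNA synthetase, Tars, gave 160, 156, 139 and 153 CPM against 128, 133, 113 and 116 CPM, and rose by 0.31 ± 0.08 (edgeR adjusted p = 0.0124). Seryl-tRNA synthetase, Sars, gave 211, 199, 185 and 192 CPM against 174, 165, 154 and 154 CPM, and rose by 0.28 ± 0.07 (edgeR adjusted p = 0.0125). In each of these 3 genes the lowest hydrogel library lay above the highest liquid library, and the call held in all 8 omissions. None of the 3 passed under the macrophage covariate. There the log2 changes of Nars, Tars and Sars were 0.44, 0.26 and 0.38 (edgeR adjusted p = 0.0949, 0.413 and 0.159).

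Tryptophanyl-tRNA synthetase, Wars, was at 143, 131, 130 and 122 CPM in hydrogel and 113, 117, 110 and 112 CPM in liquid, a log2 change of 0.21 ± 0.06 (edgeR adjusted p = 0.0295). Tyrosyl-tRNA synthetase, Yars, was at 127, 117, 110 and 111 CPM against 110, 97.2, 96.2 and 88.9 CPM, a log2 change of 0.24 ± 0.08 (edgeR adjusted p = 0.0414), with hydrogel 3 and liquid 1 at nearly the same level. Cysteinyl-tRNA synthetase, Cars, was at 80.8, 75.2, 73.4 and 77.5 CPM against 67.7, 70.2, 67.6 and 63.8 CPM, a log2 change of 0.19 ± 0.06 (edgeR adjusted p = 0.0377). These 3 calls rested on most of the libraries. Wars passed without hydrogel 4 or liquid 2, Yars without liquid 1 and Cars without liquid 2, and in all other omissions the edgeR adjusted p lay between 0.0531 and 0.115.

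The 5 synthetases that did not pass spanned log2 changes from −0.09 to 0.20. Eprs, which charges glutamate and proline, was higher in every hydrogel library, at 311 to 394 CPM against 290 to 311 CPM, with a log2 change of 0.20 ± 0.09 (edgeR adjusted p = 0.111). The methionyl, leucyl and isoleucyl enzymes Mars1, Lars and Iars had log2 changes of 0.13, 0.10 and 0.08 (edgeR adjusted p = 0.143, 0.325 and 0.475). Glycyl-tRNA synthetase, Gars, was at 490, 418, 405 and 408 CPM in hydrogel and 478, 414, 484 and 454 CPM in liquid, a log2 change of −0.09 ± 0.09 (edgeR adjusted p = 0.479). Per kilobase of exon Gars had the highest level of the 12 in liquid, 147 CPM, ahead of Nars at 59.5 and Iars at 58.5, while Cars at 10.2 was the lowest. Yars shares 30 bases of exon and Cars 211 with genes on the opposite strand, as Shmt2 does 32, and Cebpg shares 73 with a gene on its own strand, so these too carry some uncertainty of counting.

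**Figure D3:**
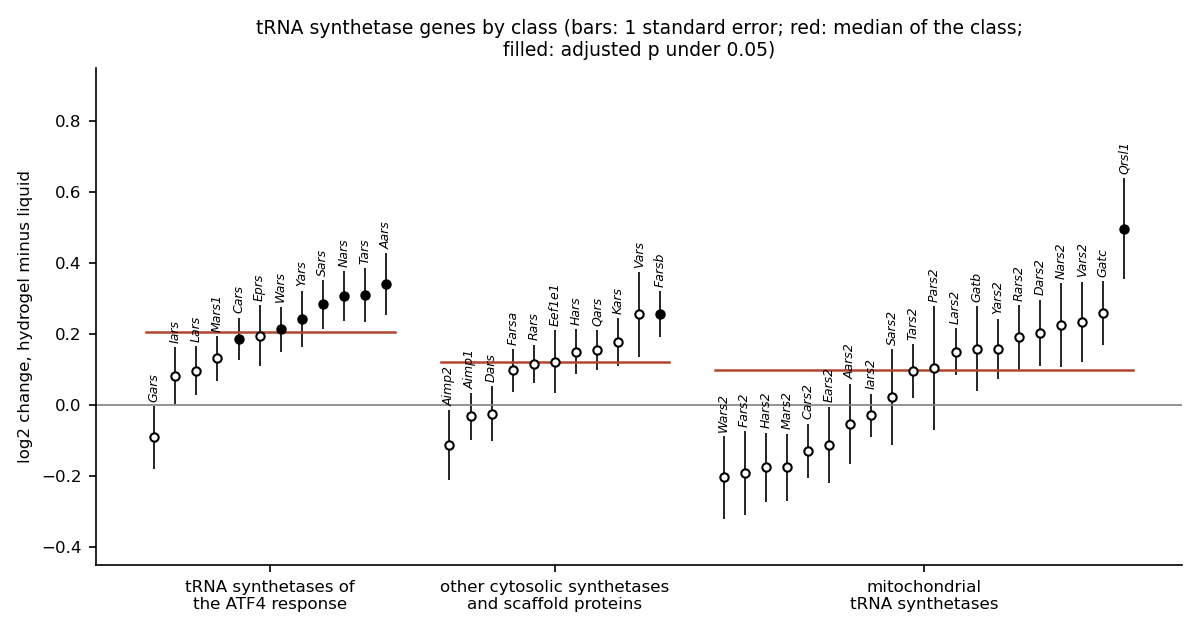
Log2 change, hydrogel minus liquid, of the 12 member synthetases and of 11 other cytosolic synthetases and scaffold proteins. Beside them are 20 mitochondrial genes, namely synthetases and the amidating enzyme's subunits Gatb, Gatc and Qrsl1. Filled points passed edgeR's test, red lines mark class medians and bars are 1 standard error. The medians are 0.21, 0.12 and 0.10, and calls number 7, 1 and 1.

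Synthetases outside the 34 genes were set beside them. Of 11 other cytosolic synthetases and scaffold proteins of the multi-synthetase complex, 1 rose and 0 fell, with a median log2 change of 0.12. That gene was Farsb, a subunit of the phenylalanyl enzyme, at 82.0, 88.4, 82.7 and 86.0 CPM in hydrogel and 73.9, 72.9, 64.3 and 72.6 CPM in liquid. Its log2 change was 0.26 ± 0.06 (edgeR adjusted p = 0.0140, 0.0510 without hydrogel 2, 0.0504 with upper-quartile scaling and 0.651 under the macrophage covariate). The mitochondrial list held 20 genes, namely synthetases and Gatb, Gatc and Qrsl1, subunits of the enzyme that amidates glutamyl-tRNA. Of these 20, 1 rose and 0 fell, with a median log2 change of 0.10. Among all genes tested, 15.1% rose and 14.1% fell. The mitochondrial gene that rose was Qrsl1, which is not itself a synthetase. Its log2 change was 0.50 ± 0.14, from 4.95 ± 0.558 to 6.98 ± 0.843 CPM (edgeR adjusted p = 0.0248). Leaving out hydrogel 2, hydrogel 4, liquid 1 or liquid 3 took the edgeR adjusted p of Qrsl1 to between 0.0621 and 0.0784, and the macrophage covariate to 0.868. Whether these lists differ from the 12 member synthetases was not tested.

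Upstream of ATF4, 18 genes were measured. They encode the eIF2 kinases, eIF2, its exchange factor eIF2B, the eIF2 phosphatase, and Gcn1, Impact, Dele1 and Oma1, regulators upstream of the kinases. Of the 18, 1 rose and 1 fell, with a median log2 change of 0.09. Each was 5.56% of the list, beside 15.1% and 14.1% of all genes tested. PKR, Eif2ak2, was at 47.9, 42.3, 46.6 and 39.9 CPM in hydrogel and 31.6, 38.3, 31.6 and 28.2 CPM in liquid, and rose by 0.45 ± 0.10 on the log2 scale (edgeR adjusted p = 0.00966). Its groups did not overlap, and under the macrophage covariate the log2 change was 0.31 (adjusted p = 0.446). The other kinases did not pass: PERK, Eif2ak3, had a log2 change of 0.18 ± 0.08 (edgeR adjusted p = 0.108), GCN2, Eif2ak4, one of 0.13 ± 0.11 (0.403) and HRI, Eif2ak1, one of −0.23 ± 0.09 (0.0828). Eif2ak1 passed as lower under upper-quartile scaling, without hydrogel 1 and without liquid 2, at edgeR adjusted p of 0.0394, 0.0488 and 0.0143. With both hydrogel 1 and liquid 2 left out its log2 change was −0.34 (edgeR adjusted p = 0.00224), and under the macrophage covariate 0.21 (adjusted p = 0.453). Eif2ak3 passed as higher without liquid 3 and with library totals alone, at edgeR adjusted p of 0.0321 and 0.0372. Ppp1r15a encodes GADD34, the phosphatase subunit that reverses eIF2 phosphorylation and that ATF4 signalling itself induces. It was at 127, 111, 109 and 114 CPM in hydrogel and 143, 141, 175 and 160 CPM in liquid, all hydrogel libraries being lower. It fell by 0.43 ± 0.09 on the log2 scale (edgeR adjusted p = 0.00500), and its log2 change was −0.12 (adjusted p = 0.728) under the macrophage covariate.

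Other genes known as ATF4 targets numbered 20 tested of 22 listed, of which 6 rose and 1 fell, with a median log2 change of 0.29. These were 30% and 5% of the 20, beside 15.1% and 14.1% of all genes tested. The largest changes of this list exceeded those of the 34 genes. Slc7a11, the cystine importer xCT, was at 99.1, 87.7, 82.2 and 81.2 CPM in hydrogel and 16.7, 15, 11.4 and 13.1 CPM in liquid. It rose 6.25-fold, with a log2 change of 2.64 ± 0.12 (edgeR adjusted p = 1.46e-05), and by 2.78 under the macrophage covariate (adjusted p = 4.74e-05). Slc3a2, the heavy chain that takes both Slc7a11 and Slc7a5 to the cell surface, was at 254, 250, 237 and 226 CPM against 172, 157, 145 and 145 CPM and rose 1.56-fold (log2 change 0.65 ± 0.08, edgeR adjusted p = 0.000501). Gdf15, a secreted stress hormone, was at 15, 25.8, 26.4 and 21.4 CPM against 4.30, 5.10, 6.27 and 4.97 CPM, with hydrogel 1 the lowest of its group, and rose 4.28-fold (log2 change 2.10 ± 0.19, edgeR adjusted p = 0.000178). Cebpb, a partner of ATF4 and also a factor of myeloid cells, rose 3.26-fold from 24 ± 4.18 to 78.1 ± 14 CPM (log2 change 1.70 ± 0.16, edgeR adjusted p = 0.000173). Under the macrophage covariate the log2 changes of Slc3a2, Gdf15 and Cebpb were 0.73, 1.49 and 1.46 (edgeR adjusted p = 0.0181, 0.0399 and 0.0168).

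Among 13 tested of 14 other amino acid transporters, 8 rose (61.5%) and 1 fell (7.69%), with a median log2 change of 0.46. The shares over all genes tested were 15.1% and 14.1%. Slc38a1, SNAT1, a close relative of Slc38a2, was at 277, 278, 270 and 242 CPM in hydrogel and 170, 186, 163 and 163 CPM in liquid. It rose 1.57-fold (log2 change 0.65 ± 0.07, edgeR adjusted p = 0.000409), whereas Slc38a2 fell. Under the macrophage covariate the log2 change of Slc38a1 was 0.56 (edgeR adjusted p = 0.0484). Slc43a2, the uniporter LAT4 for branched-chain amino acids, was at 124, 259, 259 and 227 CPM against 28.9, 68.2, 33.5 and 36.4 CPM. The low hydrogel library, hydrogel 1, and the high liquid library, liquid 2, are those nearest the opposite group in macrophage markers. Its rise was 5.21-fold (log2 change 2.38 ± 0.31, edgeR adjusted p = 0.000662) and its log2 change 0.57 under the macrophage covariate (adjusted p = 0.0760). Slc7a7 and Slc16a10, carriers of cationic and aromatic amino acids, rose 2.21-fold and 1.36-fold (edgeR adjusted p = 0.000919 and 0.00124), with log2 changes of 0.78 and 0.41 under the macrophage covariate (adjusted p = 0.227 and 0.158).

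Amino acid supply is also read by mTORC1 at the lysosome, through the Rag GTPases, the GATOR complexes and the Sestrins. Of 30 genes of that machinery, 5 rose (16.7%) and 10 fell (33.3%), with a median log2 change of −0.03. Among all genes tested, 15.1% rose and 14.1% fell. Rragd, a Rag GTPase, rose 11.7-fold from 0.671 ± 0.385 to 7.86 ± 2.44 CPM (edgeR adjusted p = 0.000408), with a log2 change of 3.55 ± 0.40, and of 1.83 under the macrophage covariate (adjusted p = 0.0677). Nprl3, a GATOR1 subunit, fell 1.96-fold from 47.0 ± 10.6 to 24 ± 3.43 CPM (edgeR adjusted p = 0.00204), with a log2 change of −0.97 ± 0.16 that was −0.05 with that covariate. Mios, of GATOR2, fell 1.30-fold (log2 change −0.38 ± 0.07, edgeR adjusted p = 0.00361, and 0.242 under that covariate). Sesn3, a relative of Sesn2, was at 6.55, 6.78, 7.41 and 8.61 CPM in hydrogel and 11.5, 12.8, 10.4 and 12.9 CPM in liquid. It fell 1.62-fold (log2 change −0.70 ± 0.13, edgeR adjusted p = 0.00301), and its log2 change was −1.07 under that covariate (edgeR adjusted p = 0.0284). Sesn1, the remaining sestrin gene, named after its values were seen, fell by 0.24 ± 0.07 on the log2 scale (edgeR adjusted p = 0.0242, and 0.460 under that covariate). Sesn2 was thus higher, and Sesn1 and Sesn3 lower, in all hydrogel libraries against all liquid ones. The log2 changes of the called genes Castor2, Deptor and Rraga, named for this reason after their values were seen, turned sign under the covariate, from 0.76 to −0.48, from 1.22 to −0.48 and from −0.31 to 0.01.

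The 34 genes were also compared library by library with the macrophage markers. The mean of the 34 genes, each as log2 CPM centred on its own mean, was 0.31 in hydrogel 1 and 0.16, 0.06 and 0.04 in hydrogel 2 to 4, and −0.03, −0.10, −0.23 and −0.22 in liquid 1 to 4. The macrophage score, the same kind of mean over 24 markers, was 0.27 in hydrogel 1 and 1.27, 1.30 and 1.26 in the others, and −1.48, −0.11, −1.48 and −1.03 in liquid 1 to 4. Hydrogel 1 thus had the lowest macrophage score of its group and the highest level of the 34 genes. It was the highest hydrogel library for 28 of the 34 genes and the highest of all 8 libraries for 25. Liquid 2, with the highest macrophage score of its group, was not the highest liquid library in the members' mean, which liquid 1 was.

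**Figure D4:**
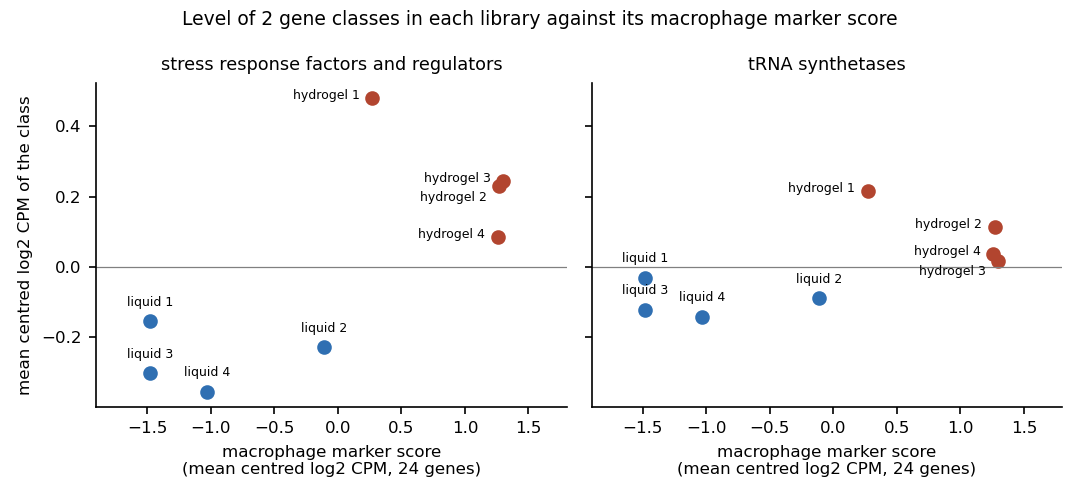
Mean centred log2 CPM of the 11 factors and regulators (left) and the 12 synthetases (right) in each library, against the macrophage score of that library (mean centred log2 CPM of 24 markers); each labelled point is 1 library. Hydrogel 1 is highest in both classes, at 0.48 and 0.22, and has the lowest macrophage score of the hydrogel libraries, 0.27.

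When both hydrogel 1 and liquid 2 were left out, 14 of the 34 genes rose and 3 fell (Cebpg, Slc38a2 and Gars), with a median log2 change of 0.22, while 21.6% of all 13890 genes tested in that fit rose and 19% fell. Under the macrophage covariate, 6 rose and 0 fell, namely Atf5, Sesn2, Trib3, Eif4ebp1, Vldlr and Aars, and the median log2 change was 0.33. In that fit 761 genes of the whole table were called, 2.95% of the genes tested being higher. Culture accounts for 80.8% of the score's variance, a variance inflation factor of 5.21, so the 2 terms overlap strongly in that fit. Among those 6 genes the log2 change in it was 0.94 for Atf5, 1.27 for Sesn2, 2.94 for Trib3, 0.62 for Eif4ebp1, 1.11 for Vldlr and 0.66 for Aars, with edgeR adjusted p from 0.00153 for Vldlr to 0.0190 for Eif4ebp1. Without the covariate the log2 changes of these 6 genes were 0.48, 1.16, 1.25, 0.26, 0.55 and 0.34, in the same order. With both libraries left out, Trib3 and Eif4ebp1 did not pass, at log2 changes of 0.63 and 0.17 (edgeR adjusted p = 0.0761 and 0.0889). Atf5, Sesn2, Vldlr and Aars did pass there. The median log2 change of the 12 synthetases was 0.30 under the covariate, where 1 of them passed. It was 0.20 when both libraries were left out, where 6 rose and 1 fell. Of the other lists under the covariate, 4 of 20 other ATF4 targets rose, and 1 of 13 other transporters rose and 1 fell. From the 18 eIF2 genes and both other synthetase lists 0 passed, and of the 30 mTORC1 genes 1 fell. The transporter gene that fell there was Slc7a8, not Slc43a1, which fell in the main fit. Slc7a8, named after its values were seen, went from a log2 change of 0.46 (edgeR adjusted p = 0.145) to −0.82 under the covariate (edgeR adjusted p = 0.0399). With both libraries left out it was 0.83 (edgeR adjusted p = 7.26e-05).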

How the data were processed

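RNA-seq was made from 8 cultures, 4 in hydrogel and 4 in liquid, with groups and replicate numbers from the labels. The authors deposited 1 table of raw counts per gene, not normalized. Per the labels' protocols, stranded mRNA libraries were made from 150 ng RNA with 13 PCR cycles. The tools in the submitters' processing notes are HTSeq 0.13.5, STAR 2.7.10b and bcl2fastq, and the build is GRCm39. The strand setting of the counting and the annotation release were not given in the sources used here. Reads from genes that overlap on opposite strands therefore cannot be assigned with certainty.

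Of 27679 genes, 26534 had a symbol in the GENCODE M21 table, which is of another build and gave names and exon lengths only; genes without one held at most 0.135% of a library's counts. Left out were 2 lines naming no gene. Genes were filtered with filterByExpr (13845 kept), TMM-scaled, and compared in edgeR 4.0.16 (R 4.3.3) by its quasi-likelihood test, calling genes whose p, adjusted by Benjamini-Hochberg, was under 0.05; the standard error is the log2 change divided by the square root of F. CPM are TMM-scaled, and log2 CPM use a prior count of 2. Alternatives were DESeq2 1.42.0, its size factors, limma-voom (limma 3.58.1), other scalings and filters, a replicate block, left-out libraries, a macrophage score (mean centred log2 CPM of the marker list) as covariate and a stricter threshold. Scripts were tested on simulated data. Promoter windows are RefSeq's (GRCm38.p6); 8 of the 12 matching stretches are printed, and the others are not reported here.

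The members and lists were chosen with earlier results of these data known. All 34 members are named, with per-library values for those that passed and for a panel of 8 (Atf4, Atf5, Ddit3, Chac1, Trib3, Asns, Psat1 and Phgdh); of each companion list, up to 4 passing genes with the smallest adjusted p, and the 4 eIF2 kinases.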

Additional observations from a re-analysis of the deposited data

Results flagged for a closer look

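In 3 of 106 groups of 4 libraries checked, 1 library stood far from the others by Dixon's test at the 95% level, which chance alone gives in about 1 group in 20. Trib3 in liquid 1 was at 7.32 CPM, with the other liquid libraries at 3.44 to 4.09 CPM. Gars in hydrogel 1 was at 490 CPM, with the other hydrogel libraries at 405 to 418 CPM. Farsb in liquid 3 was at 64.3 CPM, with the other liquid libraries at 72.6 to 73.9 CPM.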

How the results depend on the processing

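The 16 rises and 1 fall among the 34 genes were counted again under 19 alternatives. Rises numbered 9 with upper-quartile scaling, 6 with the macrophage score as a covariate and 5 at an adjusted p under 0.01. They numbered 8 to 14 over the 8 single omissions, and in every other alternative were within 1.5 times the count of 16. Of all genes tested, 12.7% rose with upper-quartile scaling, 2.95% with the covariate and 8.52% at an adjusted p under 0.01. Over the single omissions 10.4% to 18% did. Falls numbered 3 with both hydrogel 1 and liquid 2 left out, 0 with the covariate, 0 at an adjusted p under 0.01 and 0 to 2 over the single omissions. Among all genes the shares that fell were 19%, 2.54%, 6.58% and 8.66% to 17.4%, in the same order. Calls over all genes, 4052, numbered 761 with the covariate, 2091 at an adjusted p under 0.01 and 2700 to 4975 over the single omissions. The cause of these shifts was not tested, apart from the threshold's own strictness.

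Of the 34 genes, the log2 changes that turned sign were of genes that had not passed, except Slc38a2; 3 called genes of the mTORC1 list, given with it, turned as well. With the covariate they became −0.026 for Chac1, 0.086 for Cebpg, −0.056 for Slc1a5, 0.097 for Slc38a2 and 0.31 for Gars. With both libraries left out they became −0.047 for Ddit4, 0.081 for Phgdh and −0.10 for Slc1a4. Outside the 34 genes, the eIF2 kinases Eif2ak1 and Eif2ak4, which had not passed, turned to 0.21 and −0.30 with the covariate. The transporter gene Slc7a8, which had not passed either, turned to −0.82 with it and passed there as lower. Limma-voom gave 0.0014 for Phgdh and upper-quartile scaling −0.0090 for Slc1a4. Over the single omissions Ddit4 ranged from −0.013 (without hydrogel 1) to 0.24, Phgdh from −0.23 to 0.079 (without liquid 1), Slc1a4 from −0.10 (without hydrogel 1) to 0.11 and Slc1a5 from −0.0084 (without liquid 3) to 0.14.

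Same-numbered hydrogel and liquid libraries deviated together with correlations of 0.22, 0.33, −0.13 and 0.10. Hydrogel 1 correlated best with liquid 3, at 0.44, and hydrogel 2 with liquid 2. Whether the numbers pair the cultures cannot be told from these values, since hydrogel 1 and liquid 2 stood apart in macrophage markers. With the replicate number as a block, 17 of the 34 genes rose and 1 fell, beside 15.8% and 14.8% of all genes tested. In that fit 4238 genes were called in all, Psat1 and Slc7a1 passed (Slc7a1 at an edgeR adjusted p of 0.0142) and Cars did not. Depth limits the scarcest gene, Nupr1, with 86 counts over the liquid libraries.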
